A study of Mus musculus with 8 samples.

Results

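Endothelial cells that carry cardiomyocyte transcripts were 553 of the 22610 endothelial cells in the table of all libraries. They were chosen by counts of UMIs (unique molecular identifiers, each standing for 1 captured transcript). A cell was endothelial when it held a UMI of Pecam1, Kdr or Cdh5 and no UMI of the leukocyte gene Ptprc, the pericyte gene Rgs5 or the cell division genes Mki67 and Top2a. It counted as carrying cardiomyocyte transcripts when at least 2 of the 6 genes Myl2, Mb, Myl3, Tnnt2, Tnni3 and Actc1 had a UMI. Of the other endothelial cells, 1881 held exactly 1 of the 6 genes and 20176 held none, and the latter served as the comparison. The 6 genes and the 7 genes of the other criteria chose the cells, so their levels are described and not tested between these classes of cells.

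The cells came from adult mice of the line Pdgfb-iCreERT2-R26R-Brainbow2.1, in which tamoxifen switches on a multicolour reporter (Confetti) in cells where the Pdgfb promoter drives Cre. All 8 mice received 150 mg/kg tamoxifen and their hearts were taken at 21 days after it. In 4 of them the left anterior descending coronary artery had been tied off permanently 14 days after tamoxifen, which gave myocardial infarction (MI) at 7 days, and the 4 healthy mice had no surgery. Reporter-positive cells with CD31 and without podoplanin were sorted, and each mouse gave 1 10X Chromium library, so the mouse is the replicate and mice are named by group and number. The gate thus aims at endothelium of the reporter lineage. The reporter is meant to mark only cells in which the Pdgfb promoter was active and, since the label is inherited, their progeny.

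The table held 31028 cells and 126361530 UMIs, with 6764977 to 27244947 UMIs per mouse. Cells of MI mice were deeper, with a median of 3883 UMIs in endothelial cells against 2076.5 in healthy mice. Many barcodes of the library labelled Healthy 228 recurred in Healthy 239 (2041), and 316 of Healthy 227 recurred in Healthy 228, against 10 to 40 for every other pair of libraries. These 2357 cells were dropped from Healthy 228 and Healthy 227 before the cells were classed and counted, though doublet scores were computed with them in place. Their partners with the same barcode were kept in Healthy 239 and Healthy 228. Of the cells that carry cardiomyocyte transcripts, 24 of 36 in Healthy 239 and 17 of 42 in Healthy 228 share a barcode with another library. From which mouse these cells came was not tested.

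Cardiomyocytes contract through sarcomeres, in which myosin pulls on actin filaments under the control of the troponin complex. Their mitochondria burn mostly fatty acids, and the adjoining capillary endothelium takes up and passes on these lipids. Coronary arterial, capillary and venous endothelium differ in the genes they express, and capillaries run directly between the cardiomyocytes. In droplet sequencing, RNA set free from other cells can enter a droplet together with a cell.

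The 6 genes encode parts of the contractile machinery and an oxygen store. Myl2 (5:122100951-122113472, plus strand) and Myl3 (9:110741861-110769798, plus strand) encode the regulatory and the essential light chain of ventricular myosin. Tnnt2 (1:135836354-135852260, plus strand) and Tnni3 (7:4518305-4524229, minus strand) encode the cardiac troponins T and I. Actc1 (2:114047282-114053548, minus strand) encodes cardiac actin, and Mb (15:77015487-77050670, minus strand) encodes myoglobin, which binds oxygen. Positions are those of the protein-coding genes in the mouse build GRCm38, chromosome first.

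The 6 genes were counted together in cells, so the bases before their start sites were searched for motifs that muscle genes often hold. All 6 genes had an entry in the RefSeq promoter table of GRCm38.p6, and where a gene had several, the start nearest to the gene's annotated start was taken. That start lay 21817 bases from the annotated one for Myl3, 7762 for Myl2, 1701 for Tnni3 and 673 for Actc1, so the windows need not be the promoters the heart uses. The motifs, read on both strands of the 250 bases before the start, were the CArG box and the MEF2 site (by name), the M-CAT motif CATTCC and the GATA motif AGATAA. They occur in 1.47%, 2.92%, 12.6% and 9.99% of the 32851 windows of that length in the table. Of the 6 windows, 3 held a match. They are printed 5′ to 3′ on the gene's strand with the matches in capitals: Actc1 at chr2:114052876-114053125 on the minus strand, Myl3 at chr9:110763428-110763677 on the plus strand and Tnnt2 at chr1:135836084-135836333 on the plus strand.
Actc1: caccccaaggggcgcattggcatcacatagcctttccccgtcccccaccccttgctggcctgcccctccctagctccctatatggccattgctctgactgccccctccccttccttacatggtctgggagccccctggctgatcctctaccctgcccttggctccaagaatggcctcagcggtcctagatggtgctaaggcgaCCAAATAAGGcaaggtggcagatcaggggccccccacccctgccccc
Myl3: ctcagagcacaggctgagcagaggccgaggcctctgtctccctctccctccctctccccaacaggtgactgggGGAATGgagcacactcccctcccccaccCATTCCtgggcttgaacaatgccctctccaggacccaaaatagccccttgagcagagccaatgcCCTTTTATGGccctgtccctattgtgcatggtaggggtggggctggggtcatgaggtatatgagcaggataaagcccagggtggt
Tnnt2: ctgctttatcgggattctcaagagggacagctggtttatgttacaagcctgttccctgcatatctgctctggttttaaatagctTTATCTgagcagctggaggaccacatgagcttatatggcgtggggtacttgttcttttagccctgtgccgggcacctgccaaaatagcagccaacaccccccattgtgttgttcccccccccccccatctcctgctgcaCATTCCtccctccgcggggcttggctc

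The Actc1 window held a CArG box that begins 47 bases before the start. The Myl3 window held a CArG box at 85 bases and M-CAT motifs at 177 and 149 bases before the start. The Tnnt2 window held an M-CAT motif at 27 bases and a GATA motif at 166 bases. The windows of Myl2, Mb and Tnni3 held none of these letters.

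Most of the cells carried very few cardiomyocyte UMIs. Of the 553 cells, 270 held exactly 2 UMIs of the 6 genes and 71.2% held 2 or 3, the smallest numbers that the rule allows. The median was 3 UMIs, or 0.0675% of a cell's UMIs, and 22 cells held 10 or more. By number of genes, 360 cells held 2 of the 6, 103 held 3, 62 held 4, 13 held 5 and 15 held all 6. Just outside the rule, the 1881 cells with a single gene of the 6 had a median of 3680 UMIs in all, between the 2859 of cells with none and the 4298.5 of cells with 2. Cells that passed were thus deeper, which the choice itself brings about.

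**Figure D1:**
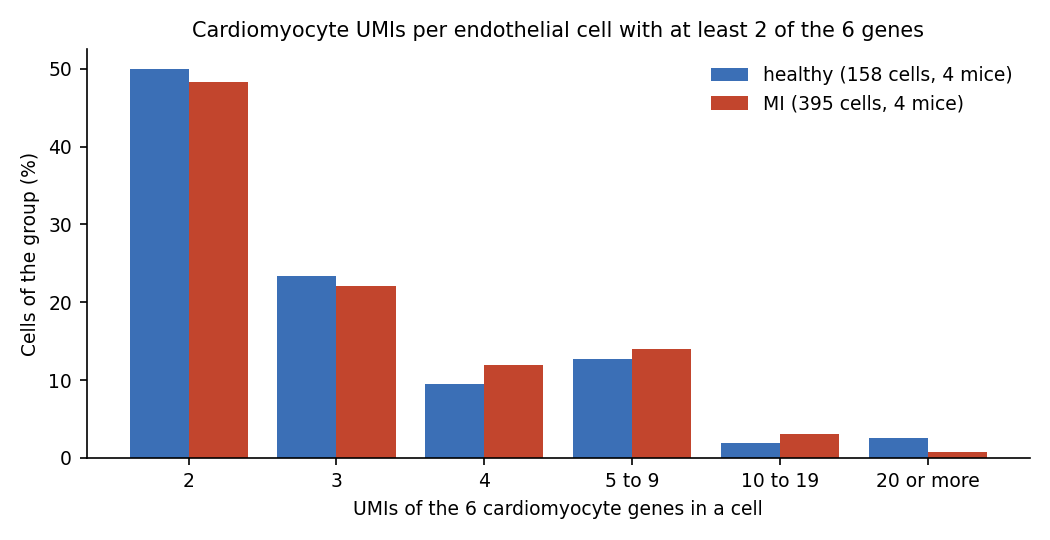
Percentage of the endothelial cells with at least 2 of the 6 cardiomyocyte genes (vertical axis) that held a given number of UMIs of these genes (horizontal axis), for 158 cells of 4 healthy mice (blue) and 395 cells of 4 MI mice (red). The minimum of 2 UMIs was held by 79 of the healthy and 191 of the MI cells.

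Myl2 was the gene most often seen, in 357 of the 553 cells (64.6%). Mb was seen in 258 cells (46.7%), Tnnt2 in 237 (42.9%), Myl3 in 207 (37.4%), Tnni3 in 198 (35.8%) and Actc1 in 175 (31.6%). The pair seen together most often was Myl2 with Mb, in 150 cells. Tnnt2 went with Myl2 in 142 cells, and the rarest pair was Myl3 with Actc1, in 60 cells. Tnni3 was seen in 48.7% of the healthy and 30.6% of the MI cells, and Actc1 in 23.4% and 34.9%. These cells held 52.8% of all UMIs of the 6 genes found in endothelial cells.

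A few cells held far more. In Healthy 239, 1 cell held 242 UMIs of the 6 genes among 2482 in all (9.75%), together with 276 UMIs of 23 other cardiomyocyte genes. All 6 genes were in it, from 20 UMIs of Actc1 to 53 of Mb, but only 1 UMI of the 12 pan-endothelial genes. The next cells, 1 of Healthy 227 with 70 UMIs (4.01%) and 1 of Healthy 239 with 42 UMIs (2.97%), held 12 pan-endothelial UMIs each. These 3 cells, all of healthy mice, were the only ones in which the 6 genes exceeded 1% of UMIs. In the MI mice the highest cell held 32 UMIs, 0.595% of its total. Some of the high cells held mainly Tnnt2: 1 cell of MI 244 had 17 Tnnt2 UMIs among 19, and 1 of MI 256 had 11 among 15.

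The endothelial label was checked on genes the rule did not use. Of 9 further pan-endothelial genes tested against cells with none of the 6, Flt1 (VEGF receptor 1) was lower (log2 fold change -0.31 ± 0.07, adjusted p = 0.0179 by edgeR) and the other 8 passed in neither direction. These 9 genes summed to between 5154 and 6182 CPM (UMI counts scaled to the same total in each mouse and class) in the chosen cells of the 8 mice. In cells with none the sums were 5677 to 6693 CPM, and the chosen cells were lower in all 8 mice. Markers of other cells were present in places. The 8 pericyte genes other than Rgs5 summed to at most 59.1 CPM (MI 256), with Cspg4 at 0 UMIs and Pdgfrb at 3. The 5 smooth muscle genes summed to 25.3 to 125 CPM in the chosen cells against 32.8 to 107 CPM in cells with none, and were higher in the chosen cells of Healthy 228, Healthy 239, Healthy 240 and MI 256. Of them Cnn1 had 0 UMIs, Myh11 1, Tagln 33, Acta2 49 and Mylk 84. The 6 macrophage genes other than Ptprc summed to 6.57 to 1928 CPM against 18.1 to 1367 CPM in cells with none. They were higher in the chosen cells of Healthy 227, Healthy 239, MI 250, MI 255 and MI 256. All 6 had a log2 fold change above 0 (median 0.87) and 0 were called by edgeR. A single cell held 209 of their 212 UMIs in Healthy 227, 150 of 182 in Healthy 239, 356 of 468 in MI 250 and 640 of 1151 in MI 255. Erythroid and platelet genes summed to 124 to 50834 CPM against 1023 to 8596 CPM, and 1 cell of Healthy 239 held 5020 of 5176 UMIs. In MI 256, 1 cell held 826 of 1018 fibroblast UMIs, and 348 of 391 lymphatic UMIs likewise came from 1 cell. Of the chosen cells, 12 (2.17%) were among those with the highest doublet scores of their mouse, against 2.56% of the cells with none. The part of these cells in the results was not tested apart from the fits without the highest doublet scores.

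The share of endothelial cells that carry cardiomyocyte transcripts was compared between the groups per mouse. In healthy mice it was 2.24% (47 of 2095 cells, Healthy 227), 3.12% (42 of 1346, Healthy 228), 1.11% (36 of 3233, Healthy 239) and 1.11% (33 of 2966, Healthy 240). In MI mice it was 3.38% (107 of 3169, MI 244), 2.11% (82 of 3895, MI 250), 3.13% (96 of 3063, MI 255) and 3.87% (110 of 2843, MI 256). The groups overlapped, since Healthy 228 and Healthy 227 lay above MI 250. The mean over 4 healthy mice was 1.90 ± 0.974% and that over 4 MI mice 3.12 ± 0.743% (SD), and the difference of 1.22 percentage points did not pass a two-sided exact permutation test (p = 0.114, where 0.0286 is the smallest p that 70 splits allow). With the copied cells kept it was 1.58 points (exact permutation p = 0.0571).

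A share of cells with at least 2 genes rises with depth, so each cell was also thinned at random to 1000 UMIs and the whole rule applied anew. This left out 522 endothelial cells with fewer UMIs, all of healthy mice. It also let in cells whose UMI of an excluding gene was not drawn, so that MI 244 had 3533 endothelial cells in place of 3169. The share fell to 0.731%, 0.844%, 0.588% and 0.256% in Healthy 227, 228, 239 and 240, from 14, 11, 17 and 7 cells. It was 0.623%, 0.321%, 0.597% and 0.874% in MI 244, 250, 255 and 256, from 22, 13, 19 and 25 cells. The means of 0.605 ± 0.255% and 0.604 ± 0.226% (SD, n = 4 mice each) differed by less than the spread between mice (exact permutation p = 1). The sign of this small difference changed with the mouse left out, from -0.118 to 0.0931 percentage points.

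**Figure D2:**
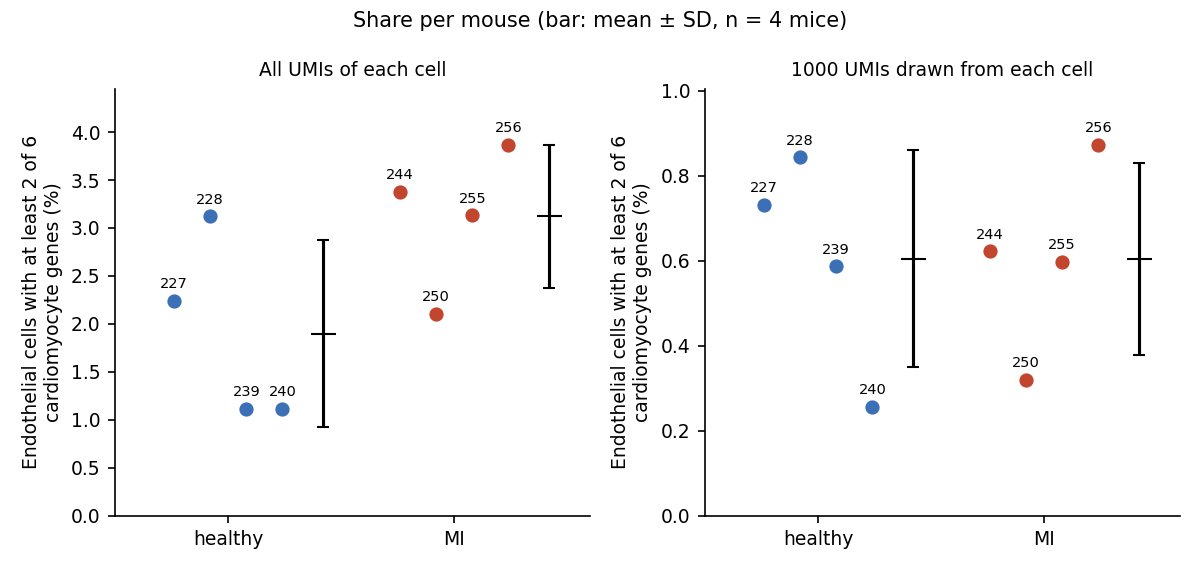
Percentage of endothelial cells with at least 2 of the 6 cardiomyocyte genes (vertical axis) in each healthy (blue) and MI (red) mouse, over all UMIs of each cell (left) and after thinning each cell to 1000 UMIs (right). Points are mice with their numbers, bars are mean ± SD (n = 4 mice), and the means of 1.90% and 3.12% on the left become 0.605% and 0.604% on the right.

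Other kinds of cells in the table were read for the 6 genes too, here with each cell's kind set from all its UMIs and only the 6 genes counted after thinning, so the endothelial means differ slightly from those above. Of 637 cells with at least 5 Rgs5 UMIs (pericyte marker, median 4255 UMIs), 32 held at least 2 of the 6 genes (5.02%), as did 62 of 1095 Ptprc-positive cells (leukocyte marker, median 7183 UMIs, 5.66%). The unthinned share in endothelial cells was 2.45% at a median of 2945 UMIs (exact 95% interval 2.25 to 2.66%, for counting error only). At 1000 UMIs the mean over 8 mice was 1.25 ± 1.25% in Rgs5-high cells and 0.578 ± 0.193% in endothelial cells of the same mice (exact paired permutation p = 0.211). In the 6 mice with enough Ptprc-positive cells it was 0.374 ± 0.786% in them and 0.536 ± 0.209% in endothelial cells (exact paired permutation p = 0.594). Neither difference passed, and few cells of the other kinds were behind them. At 1000 UMIs 6 of 632 Rgs5-high cells held at least 2 of the 6 genes, with 0 to 2 in each mouse and 0 in 3 of the 8 mice. Of 1094 Ptprc-positive cells 3 did, with 0 in 4 of the 6 mice, so the order of the kinds in single mice is not read here. The difference from Ptprc-positive cells ran from 0.0557 points without Healthy 239 to 0.426 points without MI 256. The difference from Rgs5-high cells ran from -0.863 to -0.391 points with single mice left out. Whether the UMIs in endothelial cells are RNA set free from other cells was not tested.

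The make-up of the 6-gene UMIs was not the same in all kinds of cells, and Rgs5-high cells cannot be read as cells without Tnnt2. Tnnt2 gave 51.0% of them in Rgs5-high cells and 18.3% in endothelial cells. In every one of the 8 mice Tnnt2 was higher in Rgs5-high cells, at 43.0 ± 26.2 against 9.66 ± 2.54 CPM (SD, n = 8 mice; exact paired permutation p = 0.00781, the smallest possible, and 0.0469 adjusted over the 6 genes). The other 5 genes did not pass between these kinds of cells (adjusted p = 0.859 to 0.883). In Healthy 239, Rgs5-high cells held 66 Tnnt2 UMIs but 0 of Mb and 0 of Actc1. This comparison of single genes was chosen after their values were seen.

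Within endothelial cells, Tnnt2 gave 12.5%, 15.0%, 14.1% and 15.5% of the 6-gene UMIs in Healthy 227, 228, 239 and 240. In MI 244, 250, 255 and 256 it gave 22.3%, 19.2%, 23.5% and 17.5%, and every MI mouse lay above every healthy one. Tnni3 moved the other way, from 14.2 ± 1.11% in healthy to 11.1 ± 1.32% in MI mice (SD, n = 4 each), also without overlap. For both genes the exact permutation p was 0.0286, the smallest possible, and 0.0857 after adjustment over the 6 genes, so neither passed. Myl2 stood at 30.5 ± 3.29% and 26.5 ± 2.07% (exact permutation p = 0.114, adjusted p = 0.214).

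**Figure D3:**
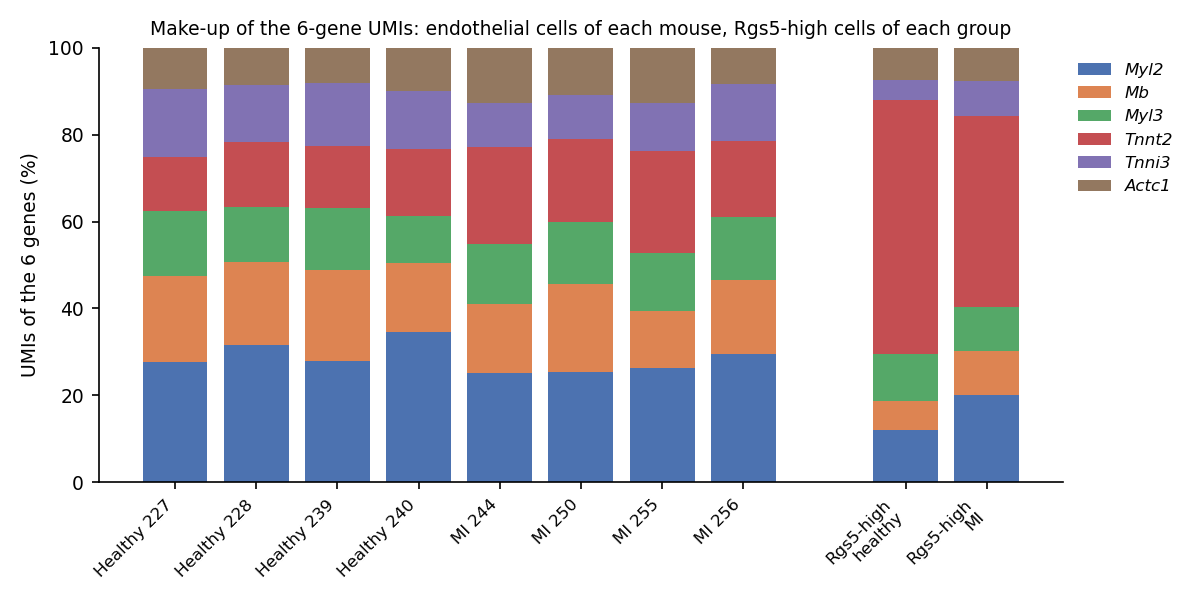
Percentage of the UMIs of the 6 cardiomyocyte genes that came from each gene (vertical axis, stacked colours), in all endothelial cells of each mouse and in Rgs5-high cells of each group. Tnnt2 (red) gave 12.5 to 15.5% in healthy and 17.5 to 23.5% in MI endothelial cells, and 51.0% over all Rgs5-high cells.

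Over all endothelial cells, without choosing cells by these genes, none of the 6 passed between MI and healthy mice by edgeR, whereas DESeq2 called Myl2 (-0.77), Mb (-0.85) and Tnni3 (-0.96) lower in MI mice. Of the 12066 genes tested by edgeR's quasi-likelihood test on sums per mouse, 16.9% were called higher and 16.5% lower in MI mice (Benjamini-Hochberg adjusted p under 0.05). The log2 fold changes were -0.78 for Myl2 (adjusted p = 0.0617), -0.86 for Mb (0.0728) and -0.97 for Tnni3 (0.0555). They were -0.57 for Myl3 (0.217), -0.32 for Actc1 (0.337) and -0.10 for Tnnt2 (0.790). Myl2 stood at 19.6, 23.6, 25.7 and 13.6 CPM in the 4 healthy mice and at 12.3, 8.18, 10.4 and 19.9 CPM in the 4 MI mice, where MI 256 overlapped the healthy range. Without Healthy 240, Myl2 (-0.94), Mb (-1.11), Myl3 (-0.84) and Tnni3 (-1.20) passed, and without MI 256, Myl2 (-1.08), Mb (-1.10) and Tnni3 (-1.30) did. Without the 3 cells over 1% the value of Tnnt2 turned to 0.19 and that of no other gene changed sign. The sizes for Mb, Myl3, Tnni3 and Myl2 also rest in part on these cells, all of healthy mice. Healthy endothelial cells held 301, 210, 223 and 463 UMIs of these genes, in this order. The top cell of Healthy 239 alone held 53, 46, 38 and 51 of them, and the cell of Healthy 227 held 16, 13, 13 and 20.

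Other genes of cardiomyocytes came along with the 6. Of 40 further cardiomyocyte genes in the lists, 17 passed the filter on low counts in the comparison with cells with none of the 6, which was fitted by edgeR with the mouse as a block. Of all 9666 genes tested, 1.62% were called, with 60 genes higher (0.621%) and 97 lower (1.0%). Among the 17, 13 were called higher and 0 lower. A cardiomyocyte gene could pass the filter through the chosen cells alone, so this count and the fold changes of such genes are a description.

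The genes with the highest fold changes by the rule for named genes all have roles in heart muscle or mitochondria. Fabp3, the fatty acid binding protein of heart muscle, stood at 89.6, 65.7, 422 and 9.47 CPM in Healthy 227, 228, 239 and 240 and at 37.8, 14.8, 28.5 and 43.5 CPM in MI 244, 250, 255 and 256. In cells with none of the 6 it lay between 0.865 and 3.03 CPM in the 8 mice. The log2 fold change was 5.01 ± 0.39 (SE) with all cells and 4.36 without the 3 cells over 1%. Csrp3, a Z-disc protein, had 4.82 ± 0.45. Cox6a2, the muscle form of a cytochrome c oxidase subunit, had 4.72 ± 0.31, and its relatives Cox8b and Cox7a1 had 4.40 ± 0.40 and 3.24 ± 0.32. Ckm (muscle creatine kinase) had 4.47 ± 0.40 and Pln (phospholamban, which restrains the calcium pump) 4.47 ± 0.36. Tnnc1, cardiac troponin C, had 4.20 ± 0.33, Fhl2 2.75 ± 0.43 and Chchd10, a mitochondrial protein, 2.03 ± 0.30. These 10 genes, chosen for one direction in every mouse, were higher in 8 of 8 mice. The single cell of Healthy 239 raised that mouse's values, and without the 3 cells over 1% 12 of 16 list genes tested were called.

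At lower levels, Pgam2 and Myh6 (alpha myosin heavy chain) had 5.01 ± 0.64 and 4.50 ± 0.49 at under 20 CPM, and Cryab had 1.83 ± 0.36. Tpm1 (0.92 ± 0.12) and Slc25a4 (0.47 ± 0.10) rose from a level that endothelial cells with none of the 6 also had, with Tpm1 (tropomyosin) at 184 ± 12.3 and Slc25a4 (the ADP/ATP carrier of mitochondria) at 326 ± 77.7 CPM (SD, n = 8 mice). Atp2a2, Asph and Acadm, at means of 39.9, 31.9 and 54.4 CPM in cells with none, did not pass (adjusted p = 0.966, 0.914 and 0.862). The 23 list genes that did not pass the filter were rarer. Des (desmin) had 133 UMIs over all chosen cells, Myoz2 80 and Tcap 66. The calcium handling genes Ryr2, Cacna1c and Casq2 had 1, 1 and 0. With depth-matched cells as the comparison (those nearest in UMIs) only 6 list genes passed the filter, of which 1 was called, Tpm1 (0.77 ± 0.15).

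Of the 8 atrial, fetal or skeletal muscle genes in the table, Tnni2 and Tnnt3 had 0 UMIs in the chosen cells, Myl7 and Tnni1 had 2 each, Myl1 had 4, Tnnt1 had 11, Myl4 had 15 and Acta1 had 55. Of the 4 cardiac transcription factors that passed the filter, Mef2a, Mef2c, Gata6 and Srf, 0 were called by edgeR (log2 fold changes -0.19 to 0.11, adjusted p = 0.78 to 1). Nkx2-5 had 2 UMIs in all. Nuclear genes of oxidative phosphorylation, which all cells use, had 1 of 18 called, Atp5g1 (0.33 ± 0.08, adjusted p = 0.0362), with a median of 0.12 against -0.01 over all genes tested.

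The carriers differed from other endothelial cells in vessel type genes. Most arterial genes were lower in them, some genes of capillaries were higher and some venous genes were lower. Of 13 arterial genes tested, 9 were called lower and 0 higher, and all 13 had a negative log2 fold change, with a median of -0.86 against -0.01 over all 9666 genes. The 12 capillary genes had 4 called higher and 0 lower, all 12 were above 0, and their median was 0.12. Of 9 venous genes tested, 5 were called lower and 0 higher (median -0.83), and 2 further venous genes, Ackr1 and Selp, were too low to test.

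Gja4 (connexin 37, a gap junction protein of arterial endothelium) fell most among the arterial genes. It stood at 0, 32.8, 9.82 and 9.47 CPM in the chosen cells of the 4 healthy mice and at 46.8, 25.3, 13.4 and 48.7 CPM in those of the 4 MI mice. In cells with none of the 6 it stood at 50.8, 87.4, 132 and 63.9 CPM and at 157, 98.0, 157 and 154 CPM. It was lower in 8 of 8 mice, with a log2 fold change of -2.10 ± 0.18 (adjusted p = 4.96e-08 by edgeR). Fbln5 (fibulin 5, an elastic fibre protein) had -1.55 ± 0.18 and was lower in 7 of 8 mice. Stmn2 stood at 127 ± 45.4 CPM against 281 ± 47.5 CPM (SD over 8 mice) and was lower in every mouse, as were Sox17, Mecom, Gja5, Jag1 and Sema3g. The last call was Hey1 (-0.74 ± 0.18, adjusted p = 0.0278), a transcription factor downstream of Notch that was lower in 6 of 8 mice. The count of 9 arterial calls moved to 7 to 9 with single mice left out and to 3 in an edgeR fit without the mouse as a block. Dll4, Efnb2, Rbp7 and Bmx did not pass (log2 fold changes -0.15, -0.41, -0.27 and -1.08).

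Summed over the 13 genes, the arterial level was lower in the chosen cells of all 8 mice. It was 1927, 2259, 1159 and 1601 CPM in Healthy 227, 228, 239 and 240 against 2696, 2973, 3493 and 2598 CPM in their cells with none. It was 1653, 1480, 1621 and 1269 CPM in MI 244, 250, 255 and 256 against 2400.2, 1762, 2228 and 2196 CPM. The gap was smallest in MI 250 and largest in Healthy 239. Pooled over all mice, cells with 2 of the 6 genes stood at 1559 CPM and cells with none at 2359 CPM. Cells with exactly 1 gene (1982 CPM) and depth-matched cells with none (1987 CPM) lay between, so part of the gap went with depth.

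Among the capillary genes, Fabp4 (an endothelial fatty acid binding protein) stood at 18980 ± 3417 CPM in the chosen cells and 16246 ± 2592 CPM in cells with none (SD, n = 8 mice), and was higher in 8 of 8 mice. Its log2 fold change was small and precise, at 0.25 ± 0.03 (adjusted p = 4.55e-06). Lpl, lipoprotein lipase, rose by 0.54 ± 0.09 (adjusted p = 0.000477), Timp4, an inhibitor of matrix proteases, by 0.54 ± 0.12 (adjusted p = 0.0122) and Aqp1, a water channel, by 0.31 ± 0.06 (adjusted p = 0.00512). In this order they were higher in 7, 7 and 6 of 8 mice. Cd36, Gpihbp1, Car4, Rgcc, Meox2, Tcf15, Cd300lg and Cav1 did not pass, with values from 0.01 (Cav1) to 0.51 (Car4). Without the mouse as a block edgeR called 0 of the 12 capillary genes, with 11 above 0, whereas DESeq2 with the block called 4. The capillary sum was higher in 7 of 8 mice, and in Healthy 239 it was 28688 against 29045 CPM.

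The venous values are given per group. Lrg1, a secreted glycoprotein, stood at 90.7, 44.3, 109 and 59.1 CPM in the chosen cells of MI 244, 250, 255 and 256 against 315, 237, 718 and 211 CPM in cells with none. In healthy mice it was low in both classes, with 147 CPM in Healthy 239 the exception. Its log2 fold change over all mice was -1.91 ± 0.33 by edgeR (adjusted p = 0.00134) and -0.46 ± 0.83 by DESeq2 (adjusted p = 0.998). Plvap, a protein of the diaphragms that span endothelial pores, had -1.51 ± 0.23 by edgeR (adjusted p = 0.000221) and -0.94 ± 0.74 by DESeq2 (adjusted p = 0.947), with 69.6 to 203 CPM in the chosen cells of MI mice and 233 to 859 CPM in cells with none. Tmem252 and Vwf had -0.91 ± 0.22 and -0.83 ± 0.19. The summed venous level was lower in the chosen cells of all 4 MI mice, at 508 to 796 against 1104 to 2588 CPM. In healthy mice it was higher in 3 of 4, at 348 to 717 against 341 to 471 CPM over the 4 mice. Few cells carried these sums, since 1 cell held 37 of the 73 venous UMIs of Healthy 239 and 1 cell 25 of the 77 of Healthy 227, and in Healthy 240 the top 3 cells held 69.2% of 52. The test of a different MI effect in the classes passed for 1 of 11 venous genes, Lrg1 (-4.96, adjusted p = 0.00174), and not for it without Healthy 239 (-3.11, adjusted p = 0.400). By DESeq2, and by edgeR without the mouse as a block, 0 of the 9 venous genes were called, and without MI 250, MI 255 or MI 256 edgeR called 3, 2 and 3.

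**Figure D4:**
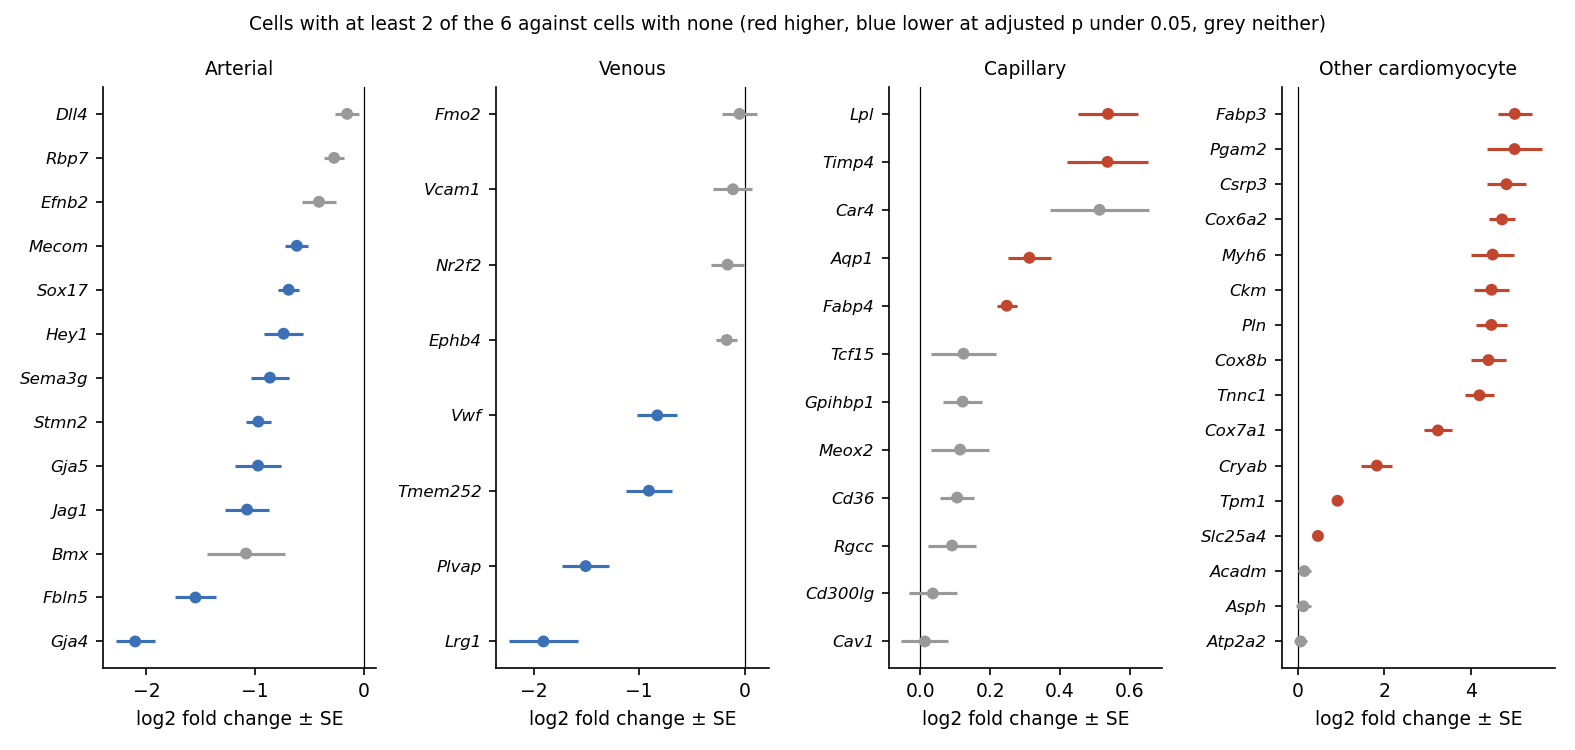
Log2 fold change ± SE (horizontal axis) of the tested arterial, venous, capillary and other cardiomyocyte gene in endothelial cells with at least 2 of the 6 genes against cells with none, from the fit over 8 mice with the mouse as a block; the scales differ between panels. Red and blue mark genes called higher and lower, and the 13 arterial genes all lie below 0 whereas the 12 capillary genes all lie above it.

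Depth was matched by taking, for each chosen cell, the cell with none of the 6 of the same mouse nearest in total UMIs. The median UMIs of the classes then differed by at most 2 in each mouse, and 4525 genes passed the filter. In this comparison 17 genes were called higher and 32 lower. Of 9 arterial genes tested, 3 were called lower, Gja4 (-1.79 ± 0.20), Fbln5 (-1.34 ± 0.25) and Stmn2 (-0.71 ± 0.15), and all 9 were below 0. Of 12 capillary genes, 4 were called higher, and all 12 were above 0. Fabp4 had 0.34 ± 0.04, Lpl 0.71 ± 0.11, Timp4 0.91 ± 0.15 and Car4 (carbonic anhydrase 4) 0.71 ± 0.16, while Aqp1 no longer passed (0.28 ± 0.11, adjusted p = 0.369). Plvap (-1.96 ± 0.25), Lrg1 (-2.49 ± 0.35) and Vwf (-1.22 ± 0.23) were called lower.

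The remaining genes with the lowest fold changes by the rule were outside the lists except Jag1 (-1.07 ± 0.21), a Notch ligand. Clu (clusterin, an extracellular chaperone) had -1.62 ± 0.18, Edn1 (endothelin 1, a vasoconstrictor) -1.56 ± 0.21 and Alox12 (a lipoxygenase) -1.27 ± 0.21. Nebl, which encodes the Z-disc protein nebulette, had -1.60 ± 0.26 at 10.6 ± 8.15 CPM against 44.5 ± 26.0 CPM (SD, n = 8 mice). Eps8l2 (-1.77 ± 0.29), Pik3r3 (-1.22 ± 0.26) and Eogt (-1.11 ± 0.21) completed them with Amd1 (-1.26 ± 0.17), an enzyme of polyamine synthesis whose reads a near copy can share. By the rule, each of these was lower in 8 of 8 mice. Edn1 stood at 8.37 to 25.6 CPM in the chosen cells and 23.5 to 68.7 CPM in cells with none.

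Mitochondrially encoded transcripts split the groups. The 10 genes in the list summed to 35254, 54206, 57601 and 64767 CPM in the chosen cells of Healthy 227, 228, 239 and 240 against 23306, 33904, 32533 and 38648 CPM in cells with none. In MI 244, 250 and 255 they summed to 24937, 24932 and 21948 CPM, below the 26929, 25742 and 26591 CPM of cells with none, and in MI 256 to 43988 against 38425 CPM. All 4 healthy mice and 1 of 4 MI mice were thus higher in the chosen cells. The pattern was not particular to them, since cells with exactly 1 of the 6 genes, pooled per group, also differed from cells with none. They stood at 48359 against 32542 CPM in healthy mice and at 29606 against 28519 CPM in MI mice. Over all mice 5 of the 10 genes were called higher (mt-Nd2, mt-Nd3, mt-Nd4, mt-Co1 and mt-Co3, log2 fold changes 0.37 to 0.43). This count moved between 0 and 9 with the mouse left out, and was 0 without Healthy 228 or without Healthy 240. It was also 0 by edgeR without the mouse as a block and 1 by DESeq2.

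The MI effect in the chosen cells differed from that in cells with none of the 6 for all 10 of these genes, by a test of the difference itself (class by group term, edgeR). Of 10420 genes tested, 0.240% were called, of which 8 had a more positive (0.0768%) and 17 a more negative (0.163%) MI effect in the chosen cells. The difference ran from -0.92 ± 0.10 for mt-Nd4 (adjusted p = 8.14e-06) to -0.63 ± 0.07 for mt-Atp6 (adjusted p = 3.97e-05), with a median of -0.73 over the 10 genes against 0.09 over all genes. With the size factors of DESeq2 the median over all genes was 0.01, and 2 genes were more positive and 17 more negative. With single mice left out 8 to 10 of them were called, whereas requiring at least 3 of the 6 genes, which left 1 healthy mouse, gave 1 call. As a share of each cell's UMIs the mitochondrial genes had a higher median in the chosen cells by 0.0508, 1.16, 1.23 and 1.41 percentage points in the 4 healthy mice. The differences were -0.213, -0.117, -0.310 and 0.117 points in the 4 MI mice. Over all 8 mice the shares of 2.88 ± 0.932% and 2.47 ± 0.404% (SD) did not pass (exact paired permutation p = 0.219). Among cells with at most 10% mitochondrial UMIs the difference of these shares fell from 0.417 to 0.113 points, with 4 of 8 mice higher (exact paired permutation p = 0.414). The differences of MI effects were not fitted with that limit.

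**Figure D5:**
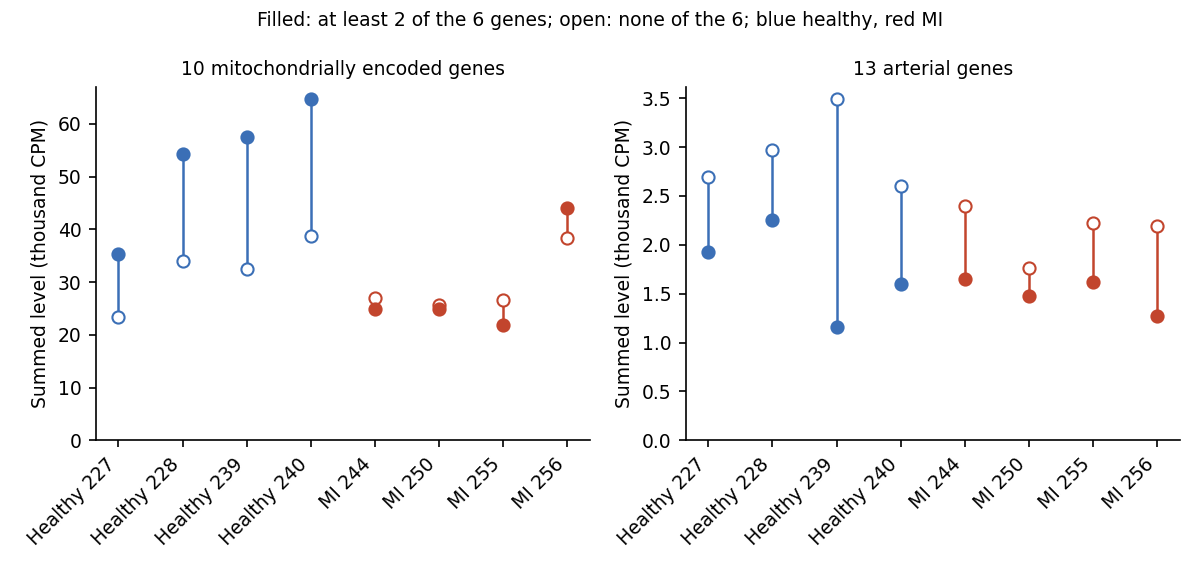
Summed level in units of 1000 CPM (vertical axis) of the 10 mitochondrially encoded genes (left) and the 13 arterial genes (right) in each mouse, with filled points for endothelial cells with at least 2 of the 6 genes and open points for cells with none. The mitochondrial level of the filled points is higher in all healthy (blue) and in 1 MI (red) mouse, and the arterial level is lower in all 8 mice.

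Within the cells that carry cardiomyocyte transcripts, MI and healthy mice were compared on sums per mouse. Of 4589 genes tested by edgeR, 7.39% were called, with 128 genes higher (2.79%) and 211 lower (4.60%) in MI mice. Cells with none of the 6, taken in equal number and nearest in UMIs, gave 148 higher and 210 lower of 4704 genes. Leaving out single mice gave between 116 and 384 calls, and requiring 3 of the 6 genes gave 38 in a fit with 1 healthy mouse left, which is assumed to vary like the MI mice. All MI mice lay on one side of all healthy mice for 15.1% of the genes tested.

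The 6 genes in the list that cardiomyocytes raise under stress had 0 to 4 UMIs each in the healthy cells, so they are described by their counts. Nppa, which encodes atrial natriuretic peptide, had 0 UMIs in all 4 healthy mice and 26, 11, 29 and 19 UMIs in MI 244, 250, 255 and 256, spread over 42 cells. Against a floor of 3 counts over the healthy group, the level in MI mice was at least 6.33-fold higher, for counting error only. Ankrd1, a stress-responsive protein of the sarcomere, stood at 0, 13.1, 19.6 and 0 CPM in the healthy and at 83.1, 40.0, 73.7 and 52.2 CPM in the MI mice. It had 4 UMIs in healthy and 148 in MI mice, a ratio of 8.27 per UMI (95% counting interval 3.16 to 30.7). Ankrd1 thus passed the filter on low counts through the MI mice. Its fitted log2 fold change (2.85 ± 0.63) and its call, lost without Healthy 227, are therefore a description. Acta1, skeletal actin, had 2 UMIs in healthy and 53 in MI mice, a ratio of 5.92 per UMI (95% counting interval 1.56 to 50.2). Nppb and Xirp2 had 0 UMIs in healthy and 12 and 13 in MI mice, too few to tell from the floor. Myh7, the beta myosin heavy chain, had 2 UMIs in healthy and 7 in MI mice, a ratio of 0.782 (95% counting interval 0.149 to 7.72). Over all endothelial cells Ankrd1 had a log2 fold change of 3.64, and the test of a different MI effect in the chosen cells did not pass for it (adjusted p = 0.873).

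Some genes of cardiomyocyte energy supply went the other way, but none of these calls held without the 3 healthy cells in which the 6 genes exceeded 1% of UMIs. Cox7a1 stood at 57.6, 59.1, 157 and 37.9 CPM in healthy and at 16.6, 27.4, 25.1 and 29.6 CPM in MI mice, without overlap (-1.72 ± 0.41, adjusted p = 0.0220). Cox6a2 (-1.89 ± 0.46, adjusted p = 0.0258) and Fabp3 (-2.21 ± 0.63, adjusted p = 0.0483) were also called lower, with overlapping groups. Without the 3 cells Cox7a1 kept most of its size (-1.35 ± 0.41, adjusted p = 0.0576), whereas Cox6a2 moved to -0.74 (adjusted p = 0.254) and Fabp3 to -0.61 (adjusted p = 0.476). Tnnc1, Pln and Myoz2 had -0.92, -1.96 and -0.88 and did not pass. Of the 14 other cardiomyocyte genes tested, 3 were called lower. Ankrd1 was called higher, but it passed the filter on low counts through the MI mice, so its call is a description. MI cells were deeper and the UMIs of the 6 genes made up a smaller share of them (median 0.0569% against 0.0931%), and the part of this in the 3 calls was not tested.

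The endothelial genes moved as follows. Of the 12 capillary genes, 7 were called lower in MI mice and 0 higher, among them Cd300lg (-0.85 ± 0.18), Aqp1 (-1.05 ± 0.21), Lpl (-1.06 ± 0.30) and Car4 (-1.14 ± 0.28). Without Healthy 228, Aqp1 alone of the 7 was still called, and Lpl lost the call without any 1 mouse but Healthy 240. Over all endothelial cells 8 of the 12 were called lower in MI mice by edgeR (median -0.72, against -0.80 in the chosen cells). The test of a different MI effect in the chosen cells passed for 0 of the 12. Of the 9 interferon response genes, 6 were called higher and 0 lower, of which Irf7 and Isg15 were still called without Healthy 228. Over all endothelial cells 3 of the 9 were called higher, and the test of a different MI effect passed for 0 of the 9. Irf7, a transcription factor of the response, stood at 109, 46.0, 88.4 and 104 CPM in healthy and at 396, 489, 633 and 221 CPM in MI mice (2.20 ± 0.32, adjusted p = 0.00229). All 10 mitochondrial genes were called lower (median -1.04), though mt-Atp6, mt-Co1, mt-Co2, mt-Co3, mt-Cytb and mt-Nd1 lost the call without any 1 of Healthy 228, Healthy 239, Healthy 240, MI 244, MI 250 and MI 255, and mt-Nd5 without Healthy 228. Of 8 arterial genes tested by edgeR, 0 were called, with a median of -0.05. Sprouting genes had 2 of 5 called higher, Mcam (1.41 ± 0.32) and Col4a1 (0.80 ± 0.16).

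Among the highest genes by the rule were Cxcl10, Exoc3l4, Fam167b, Col18a1, Ankrd1, Igfbp3 and Pi16. The chemokine Cxcl10 had 1 UMI in healthy and 286 in MI cells, a ratio of 63.9 (95% counting interval 11.4 to 2533, for counting error only). Its call was lost without any 1 of the 4 healthy mice. Exoc3l4 and Fam167b likewise had 1 and 2 UMIs in healthy and 125 and 195 in MI cells, so these 3 genes passed the filter through the MI mice and are a description. Igfbp3, an IGF binding protein, rose by 2.81 ± 0.40, Col18a1, a basement membrane collagen, by 2.97 ± 0.64 and Pi16 by 2.72 ± 0.49. Over all endothelial cells the same contrast gave 1.30 for Igfbp3, 2.43 for Col18a1 and 1.16 for Pi16. The difference in MI effect between the classes passed for Igfbp3 alone of these genes (1.47 ± 0.32, adjusted p = 0.0476), and not for it without Healthy 228, Healthy 239, Healthy 240 or MI 255.

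The lowest 8 were Tuba4a, Gm10263, Fmo2, Rps26-ps1, Gm11273, mt-Nd4l, Tbx3 and Gm17541. Tuba4a, an alpha tubulin, stood at 32.0 to 167 CPM in healthy and 8.43 to 19.1 CPM in MI mice (-2.33 ± 0.53, adjusted p = 0.0183). Fmo2, a flavin monooxygenase of venous endothelium, stood at 88.4 to 218 CPM and 26.8 to 57.4 CPM (-2.04 ± 0.31, adjusted p = 0.00253). Tbx3, a T-box transcription factor, had -1.94 ± 0.41. Tuba4a was not called without Healthy 239, nor Tbx3 without Healthy 227, nor Col18a1 and Mcam without Healthy 227 or Healthy 228. The 4 genes with Gm or ps names can share reads with near-identical copies, so their values (-1.93 to -2.26) are uncertain.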

How the data were processed

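The authors made 10X Chromium 3′ v2 libraries, 1 per mouse, and used Cell Ranger for alignment and counting and, per the labels' processing notes, R 3.5.2 and Seurat 2.3. The deposited table holds raw counts of UMIs for 16791 genes in 31028 cells, already filtered by the authors, where no cell had fewer than 403 genes or over 20.0% of UMIs from mitochondrial genes. A gate of the sort left out doublets, and no removal of doublets from the counts is given in the sources used here. The scrublet method in scanpy 1.11.5 called 1 doublet in 1 mouse and 0 in the other 7, so its automatic calls were not used, and cells of the highest score, 0.8% per 1000 cells, were left out as an alternative.

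Counts were summed per mouse and class of cell and tested with edgeR 4.0.16 (quasi-likelihood test, TMM, filterByExpr, Benjamini-Hochberg adjusted p under 0.05), in R 4.3.3. DESeq2 1.42.0 was an alternative. Comparisons of classes within mice had the mouse as a block. Single values per mouse were compared with two-sided exact permutation tests over 70 splits, or over sign flips within mice. The libraries, 1 per mouse, held 6764977 to 27244947 UMIs. Exact 95% intervals (scipy 1.17.1) and the floor of 3 counts cover counting error only. The 13 genes of the rule were not tested where they had chosen the cells.

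Genes named were the 10 highest and 10 lowest log2 fold changes among called genes with at least 20 CPM and 1 direction in every mouse for chosen cells against cells with none, and the 8 highest and 8 lowest, with groups that did not overlap, for MI against healthy mice, besides the genes of the lists. A few of these genes are not reported here, though counts over lists hold them. The cells, gene lists and tests were chosen with earlier results of these data known. The edgeR fits were checked on simulated counts. Alternatives included other thresholds, depths, filters and scalings, matched depth and each mouse left out.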

Additional observations from a re-analysis of the deposited data

Results flagged for a closer look

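Within groups of 4 mice, 13 of the 114 sets of values checked had 1 mouse far from the other 3, where chance gives about 1 in 20. In Healthy 239 the chosen cells stood apart for Chchd10 (177 CPM), Fhl2 (157 CPM), Tnnc1 (246 CPM), Pln (422 CPM), Ckm (167 CPM), Csrp3 (246 CPM), Tuba4a (167 CPM) and Exoc3l4 (9.82 CPM). Healthy 227 stood apart for Tbx3 (134 CPM) and Cxcl10 (6.40 CPM), and MI 250 for Cox8b (29.5 CPM). The values of Exoc3l4 and Cxcl10 are 1 UMI each, against 0 in the other 3 healthy mice. In MI 256 the median mitochondrial percentage was high in both classes, 3.31% in the chosen cells and 3.19% in cells with none.

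The MI effect differed between the chosen cells and cells with none for 25 genes by the class by group term of edgeR. It was more negative in the chosen cells for the mitochondrial genes mt-Nd4 (-0.92), mt-Nd5 (-0.90), mt-Nd4l (-0.79), mt-Co1 (-0.77), mt-Co3 (-0.75), mt-Cytb (-0.74), mt-Co2 (-0.72), mt-Nd3 (-0.70), mt-Nd1 (-0.70), mt-Nd2 (-0.66) and mt-Atp6 (-0.63), on the log2 scale. It was also more negative for Ccl8 (-5.54), Spp1 (-5.41), Lrg1 (-4.96), Gas7 (-4.88), Ifi27l2a (-1.67) and Fth1 (-0.55). Of these, Spp1 had 250 CPM in Healthy 227 and 0 in the other 3 healthy mice, and the macrophage UMIs of Healthy 227 lay almost wholly in 1 cell. It was more positive for Cox4i2 (2.74), Igfbp3 (1.47), Nudt4 (1.08), Plk2 (0.84), Ltbp4 (0.67), Bst2 (0.59), Sparc (0.41) and Ly6a (0.40). Each of the genes outside the mitochondrial ones lost its call without at least 1 mouse. Ccl8 moved to -2.13 and Ifi27l2a to -0.76 without Healthy 227, and Lrg1 to -3.11 without Healthy 239.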

How the results depend on the processing

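The share of chosen cells per mouse stayed higher in MI mice with each mouse left out (0.962 to 1.63 percentage points). Its difference at equal depth, -0.00123 points, became 0.0495 with copied cells kept and -0.118 to 0.0931 with single mice left out. Chosen cells against cells with none gave 157 called genes, 284 without a filter on low counts, 49 against cells nearest in UMIs and 109 to 162 with single mice left out. With no replicate block, that is without the pairing of classes by mouse, 21 genes were called. No paired analysis was possible between MI and healthy mice because the groups share no mouse numbers. MI against healthy mice within the chosen cells gave 339 calls, 557 without the filter, 38 with at least 3 of the 6 genes, where 1 healthy mouse was left, and 116 to 384 with single mice left out. The difference of MI effects gave 25 calls, 103 without the filter, 11 with at least 3 genes and 11 to 43 with single mice left out. The 13 other cardiomyocyte genes called became 29 without the filter, 20 with at least 3 genes and 1 against cells nearest in UMIs, where fewer genes were tested. DESeq2 called Myl2 (-0.77), Mb (-0.85) and Tnni3 (-0.96) over all endothelial cells. With single mice left out the log2 fold changes were -1.08 to -0.61 for Myl2, -1.11 to -0.61 for Mb, -0.84 to -0.34 for Myl3, -0.289 to 0.0829 for Tnnt2, -1.30 to -0.77 for Tnni3 and -0.50 to -0.17 for Actc1. Without the cells over 1%, all of healthy mice, Tnnt2 was 0.19. The sizes for the other genes of the 6 rest in part on these cells too. The top cell of Healthy 239 alone held 53 of 301 Mb and 46 of 210 Myl3 UMIs of healthy endothelial cells. With at least 3 genes, where the healthy group is 1 mouse, mt-Nd4 against cells with none was -0.0235, and the differences of MI effects of Gas7 and Ifi27l2a were 4.45 and 2.19. That of Spp1 ran from -7.04 without Healthy 240 to 5.96 without Healthy 227. The cause was not tested. Among the chosen cells, the 158 healthy cells held 515917 UMIs against 2308445 in those of MI mice. How far this lower depth limits the MI comparison within the chosen cells was not tested.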
